A study of Mus musculus with 16 samples.

Results

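Myelin gene transcripts were measured in the RNA of sorted sensory neurons from 4 mouse ganglia. The 8 genes examined were *Pmp22*, *Prx*, *Mbp*, *Mag*, *Cnp*, *Mal*, *Egr2* and *Pllp*, chosen by symbol as genes of myelinating Schwann cells, and all 8 were present among the 22609 gene symbols of the count data. Neurons that carried TdTomato came from the trigeminal ganglion (TG), the nodose and jugular ganglia of the vagus nerve (NG/JG), the lumbar L3–L5 dorsal root ganglia (DRG) and the thoracolumbar T10-L1 DRG, with 4 libraries per ganglion and 16 in all. All mice were young adult, untreated C57BL/6J males by the labels, and all carried the same alleles, *Pirt* cre/- and Rosa26 LSL-tdTomato/+, so that TdTomato was driven by Cre expressed from *Pirt*, a gene of peripheral sensory neurons. Ganglia of the left and right sides were dissociated, and live, bright TdTomato cells outside the doublet gate were sorted over 2 rounds. The labels do not say how many animals made up a library, so p-values measure the spread between these libraries. There was no treated group, and the comparisons are between ganglia.

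Myelinating Schwann cells wrap the axons of peripheral nerves, and oligodendrocytes do the same in the brain and spinal cord. PMP22, a tetraspan membrane protein, and MBP, which holds the cytoplasmic faces of the membrane together, belong to compact myelin. MAG lies on the membrane that faces the axon and CNP in the non-compact cytoplasmic channels, while periaxin, the product of *Prx*, is a scaffold that links the Schwann cell membrane to its surroundings. MAL and plasmolipin, encoded by *Pllp*, are proteolipids of myelin membrane and vesicle traffic, and EGR2, also called KROX20, is the transcription factor that Schwann cells need to form myelin. *Pmp22*, *Prx* and *Egr2* mark mainly the peripheral cell, whereas *Mbp*, *Mag*, *Cnp*, *Mal* and *Pllp* are used in peripheral and central myelin alike. *Egr2* is also an immediate-early gene that many cell types switch on within minutes of stimulation.

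The letters upstream of 3 members are shown: *Egr2* because it moved apart from the others, *Pllp* as 1 of the 2 members called in a comparison of 2 ganglia, and *Prx* as a gene of the peripheral cell. Each run holds the 250 bases before a RefSeq transcription start on GRCm38.p6, read 5′ to 3′ on the strand of the gene, at chr10:67537619-67537868 for *Egr2*, chr7:27499074-27499323 for *Prx* and chr8:94696243-94696492 for *Pllp*. Capitals mark a CArG box, the letters CC and GG around a run of A and T, in *Egr2*, the letters CCCACGC, which read GCGTGGG (the core of the EGR motif) on the other strand, in *Prx*, and GGGCGG (a GC box) in *Pllp*.
Egr2: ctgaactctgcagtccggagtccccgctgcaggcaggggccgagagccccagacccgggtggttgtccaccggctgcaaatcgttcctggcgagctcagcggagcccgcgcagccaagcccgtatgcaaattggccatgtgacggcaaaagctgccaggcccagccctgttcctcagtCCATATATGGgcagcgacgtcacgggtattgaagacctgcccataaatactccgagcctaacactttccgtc
Prx: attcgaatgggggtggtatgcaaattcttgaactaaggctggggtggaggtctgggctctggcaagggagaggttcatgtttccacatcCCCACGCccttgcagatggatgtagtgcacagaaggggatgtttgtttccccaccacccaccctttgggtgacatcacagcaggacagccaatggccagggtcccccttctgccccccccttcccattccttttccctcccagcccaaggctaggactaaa
Pllp: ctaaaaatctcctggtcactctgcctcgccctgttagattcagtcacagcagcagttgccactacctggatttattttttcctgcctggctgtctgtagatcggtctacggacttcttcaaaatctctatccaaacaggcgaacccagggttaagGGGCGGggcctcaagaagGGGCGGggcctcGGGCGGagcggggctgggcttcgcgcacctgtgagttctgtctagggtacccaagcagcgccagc
Searched on both strands, a CArG box was present in 1.47% of the 32851 windows of this length in the table, GCGTGGG in 4.3%, GGGCGG in 32.7% and ACAAAG (the core of the SOX motif) in 16.5%. Of the 16 windows that belonged to 7 of the members, 4 held a CArG box, all of them windows of *Egr2*, of which 3 overlap. GCGTGGG was in 1 of the 16, GGGCGG in 6 and ACAAAG in 3. None of the 9 immediate-early genes matched in the table held a CArG box in this window. A match of letters is a description and not a binding site.

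On mm9, in the GENCODE annotation, *Pmp22* lay on the plus strand of chr11:62942484-62973049, *Prx* on the plus strand of chr7:28284343-28305233, *Mag* on the minus strand of chr7:31684202-31699851 and *Cnp* on the plus strand of chr11:100436218-100453043. *Mal* lay on the minus strand of chr2:127458962-127482431, *Egr2* on the plus strand of chr10:66998223-67004936, *Pllp* on the minus strand of chr8:97198795-97220142 and *Mbp* on the plus strand of chromosome 18. An antisense gene, Gm15541, overlapped 5.38% of the exon length of *Prx*, and *Dnajc7* overlapped 4.23% of that of *Cnp*. Reads there can be assigned only with strand, and whether strand was used is not stated.

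The libraries held 4735624 to 13333318 reads on genes, so every member was counted many times in every library. L3–L5 DRG library 4 stood apart in that 66.6% of its uniquely aligned reads were assigned to no annotated feature, the highest share of the 16, the lowest being 29.6%. In all 16 libraries *Xist* had over 1000 reads and 8 genes of chromosome Y had none, although the labels give male mice. Sensory neuron transcripts were present throughout, with a summed level of 15 neuron genes between 1614 CPM in TG library 1 and 16750.4 CPM in L3–L5 DRG library 3, and all 15 were detected in each ganglion. CPM here is a gene's count relative to all reads on genes of its library, scaled by the trimmed mean of M-values (TMM), and RPKM, which divides by exon length, was used to compare 1 gene with another.

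*Pmp22*, *Mbp* and *Cnp* were among the most abundant transcripts of these libraries, with median ranks by RPKM of 12, 28.5 and 60.5. The other members had median ranks from 165.5 (*Mal*) to 827 (*Mag*). The 8 genes together took between 0.725% and 5.32% of all reads on genes. In TG they took 5.32%, 3.47%, 2.18% and 2.94% of reads in libraries 1 to 4, and in NG/JG 2.84%, 1.25%, 1.61% and 0.973%. L3–L5 DRG had 2.26%, 0.727%, 0.725% and 4.10%, and T10-L1 DRG had 2.39%, 1.33%, 1.36% and 1.46%. Every TG library was above 3 of the 4 libraries of NG/JG and of T10-L1 DRG and above 2 of those of L3–L5 DRG, and the ranges overlapped. The summed level was 37352 ± 13999.7 CPM in TG (SD over 4 libraries), 15667 ± 4581 in T10-L1 DRG, 16904 ± 7971 in NG/JG and 17949 ± 14143 in L3–L5 DRG. With a library left out, the mean of L3–L5 DRG ran from 11614 CPM (without library 4) to 21571 CPM (without library 2). That of TG ran from 31096 CPM (without library 1) to 42023 CPM (without library 3). In bulk RNA, more Schwann cell material and more RNA per cell cannot be told apart.

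**Figure D1:**
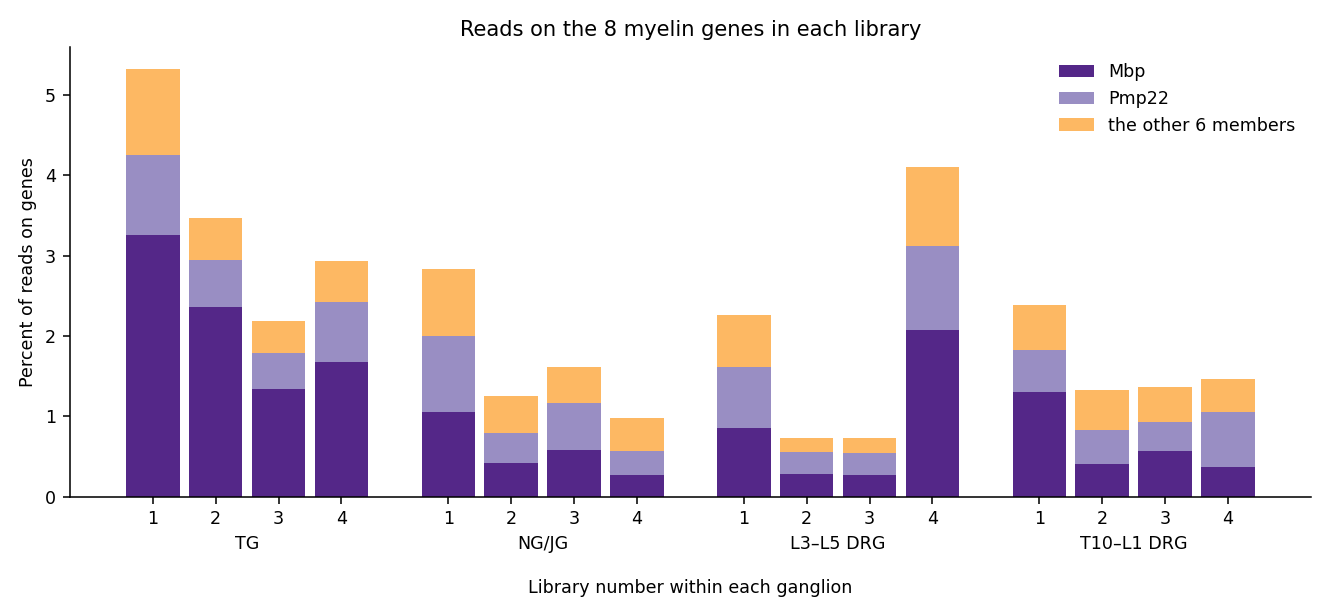
Percent of reads on genes taken by Mbp, Pmp22 and the other 6 members (stacked bars, vertical axis) in each of the 16 libraries, grouped by ganglion. The highest bars are TG library 1 (5.32%) and L3–L5 DRG library 4 (4.10%), and L3–L5 DRG libraries 2 and 3 are the lowest (0.727% and 0.725%).

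Per length, *Pmp22* was the most abundant member, with a median of 2361 RPKM over the 16 libraries and a rank between 3 and 24 among all genes of a library. *Mbp* followed with a median of 848 RPKM and ranks from 6 to 142, *Cnp* with 551 RPKM and ranks from 22 to 276, and *Mal* with 269 RPKM. *Pllp* had a median of 219.7 RPKM, *Prx* 187 RPKM, *Egr2* 145 RPKM and *Mag* 85.9 RPKM. The exon length used for *Mbp* includes exons of its long transcripts, which lowers its RPKM. The span from the lowest to the highest library was smallest for *Pmp22*, at 3.88-fold in CPM, and widest for *Egr2*, at 17.0-fold.

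*Mbp* showed the clearest difference between ganglia. Its level in TG was 34303, 26322, 14306 and 17772 CPM in libraries 1 to 4. In NG/JG it was 10602, 4087, 5607 and 3038 CPM, in L3–L5 DRG 7725, 2679, 2713 and 18673 CPM, and in T10-L1 DRG 12152, 3722, 5491 and 3643 CPM. All 4 TG libraries were above every NG/JG and T10-L1 DRG library, and L3–L5 DRG library 4 reached into the TG range. The means were 23175.5 ± 8974 CPM in TG, 5834 ± 3350 in NG/JG, 6252 ± 4025 in T10-L1 DRG and 7947 ± 7533 in L3–L5 DRG (SD, n = 4 each), and the last 3 lay within 1 SD of each other.

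**Figure D2:**
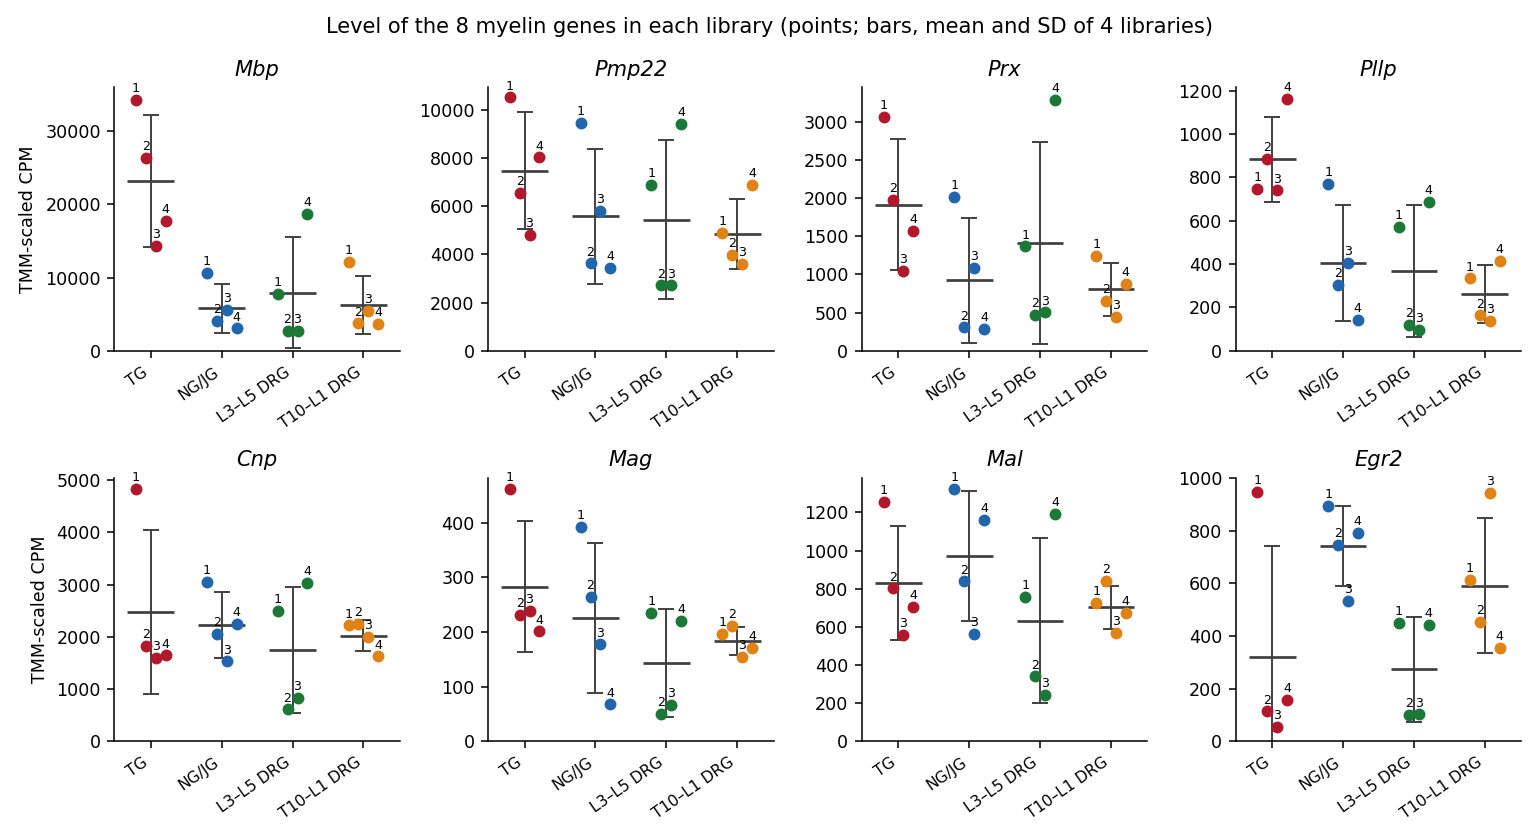
Level of each of the 8 genes in TMM-scaled CPM (vertical axes, each starting at 0) in the 4 ganglia, with every library as a numbered point and the mean and SD of 4 libraries as bars. Mbp and Pllp have all TG points above the T10-L1 DRG points, and Egr2 is low in TG libraries 2 to 4 but at 949 CPM in library 1. The SD bar of Egr2 in TG reaches below 0 and is cut there.

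*Pmp22*, whose protein shares compact myelin with MBP, was more even. It stood at 10510.4, 6563, 4801 and 8022 CPM in TG and at 9448, 3626, 5805 and 3443 CPM in NG/JG. L3–L5 DRG libraries had 6895, 2712, 2711 and 9409 CPM and T10-L1 DRG libraries 4898, 3988, 3607 and 6887 CPM. The ranges of all 4 ganglia overlapped, and the order TG, NG/JG, L3–L5 DRG, T10-L1 DRG had no neighbours that differed beyond their spread.

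The scaffold gene *Prx* had 3067, 1978, 1047 and 1566 CPM in TG. NG/JG fell into higher and lower libraries, with 2011, 305, 1087 and 282 CPM, and so did L3–L5 DRG, with 1367, 473, 501 and 3293 CPM. T10-L1 DRG had 1242, 649, 444 and 879 CPM. *Prx* and *Pmp22* ranked the libraries alike: their log2(CPM + 1) values correlated at r = 0.90 over the 16 libraries, the members sharing library, depth and scaling.

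*Pllp* was steady in TG, at 745, 885, 739 and 1160.1 CPM, and lower in most other libraries. NG/JG had 769, 303, 406 and 143 CPM, L3–L5 DRG 569.8, 118, 95.8 and 685 CPM, and T10-L1 DRG 333, 163, 139 and 415 CPM. No library of either DRG group reached the lowest TG library, and NG/JG library 1 was above TG libraries 1 and 3. *Mal*, the other proteolipid, did not share this order. Its mean was highest in NG/JG at 972 ± 339 CPM, followed by TG at 830.4 ± 300.1, T10-L1 DRG at 702 ± 115 and L3–L5 DRG at 633 ± 434, and all ranges overlapped within 243 to 1325 CPM.

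*Mag* and *Cnp*, of non-compact myelin, had their highest value of all in TG library 1. *Mag* had 461, 231, 238 and 201 CPM in TG, 393, 264, 177 and 67.7 in NG/JG, 197, 212, 155 and 172 in T10-L1 DRG, and L3–L5 DRG had 235, 50.5, 67.3 and 221. *Cnp* had 4831, 1828, 1593 and 1645 CPM in TG, where libraries 2 to 4 were within the range of the other ganglia. Its means were 2474 ± 1574 CPM in TG, 2224 ± 636 in NG/JG, 2026 ± 288 in T10-L1 DRG and 1744 ± 1208 in L3–L5 DRG. No neighbours in either order differed beyond their spread.

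*Egr2*, the transcription factor, followed another pattern. TG had 949 CPM in library 1 and 113, 55.9 and 157 CPM in libraries 2 to 4. NG/JG had 894, 746, 535 and 792 CPM and T10-L1 DRG 614, 455, 943 and 356 CPM, while L3–L5 DRG had 451, 99.6, 102 and 442 CPM. All NG/JG libraries were above all L3–L5 DRG libraries, and TG spanned the whole range. The mean correlation of *Egr2* with the other 7 members over the 16 libraries was 0.27, whereas it was 0.60 to 0.71 for each of the others with its own 7. Within ganglia, after each ganglion's mean was taken off, *Egr2* stood at 0.61 and the others at 0.67 to 0.77.

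TG against T10-L1 DRG was the comparison in which members passed the test (edgeR's quasi-likelihood test with Benjamini-Hochberg adjustment over all genes tested). *Mbp* was 4.18-fold higher in TG (log2 fold change 2.07, SE 0.52, adjusted p = 0.0460), and *Pllp* was 3.86-fold higher (1.95, SE 0.42, adjusted p = 0.0318). These were 2 of 8 members, both higher in TG, in a comparison where 5.87% of 12914 genes were called and 4.33% were called higher in TG. They were also the 2 members whose libraries did not overlap, a pattern that 6.96% of genes showed with TG higher. *Prx* was 2.68-fold higher in TG without passing by quasi-likelihood (adjusted p = 0.0706), whereas DESeq2 (adjusted p = 0.0208) and edgeR's likelihood-ratio test (adjusted p = 0.0200) called it. *Mag* at 1.73-fold (adjusted p = 0.145) and *Pmp22* at 1.74-fold (adjusted p = 0.243) did not pass. *Cnp* and *Mal* differed by 1.36-fold and 1.34-fold, and *Egr2* was 1.73-fold higher in T10-L1 DRG (adjusted p = 0.587). At an unadjusted p under 0.05 there were 4 members and 2795 genes. The median log2 fold change was 0.80 over the 8 members and -0.03 over all genes tested.

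The *Mbp* and *Pllp* calls sat close to the threshold. With all 16 libraries in 1 fit neither passed (adjusted p = 0.107 and 0.150), and with no filter on low counts *Mbp* did not (adjusted p = 0.0546). Both were lost when any of TG libraries 2, 3 or 4 or T10-L1 DRG libraries 1, 2 or 3 was left out, and the *Mbp* call was lost without T10-L1 DRG library 4, while their log2 fold changes stayed between 1.85 and 2.61 and between 1.73 and 2.25. Without TG library 1, which had the lowest neuron transcript level, 4 members passed. *Mbp* (adjusted p = 0.0115), *Pllp* (0.00449) and *Prx* (0.0374) were higher in TG. *Egr2* (0.00506) was lower in TG, at a log2 fold change of -2.20. The genes called rose from 758 of 12914 to 3583 of 13410.

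TG against NG/JG gave no member past the threshold, in a comparison with 6 of 11769 genes called (0.0510%). *Mbp* was 4.26-fold higher in TG (log2 fold change 2.09, SE 0.47, adjusted p = 0.127) without overlap between libraries, a pattern that 5.51% of genes showed with TG higher. DESeq2 called *Mbp* in this comparison (adjusted p = 0.0168). *Pllp* was 2.37-fold higher (adjusted p = 0.358) and *Prx* 2.22-fold higher in TG (adjusted p = 0.586), and *Egr2* was 2.26-fold higher in NG/JG (adjusted p = 0.658). With TG library 1 left out, *Egr2* passed at a log2 fold change of -2.62 (adjusted p = 0.0207). At an unadjusted p under 0.05 there were 2 members, *Mbp* and *Pllp*, and 1180 of the 11769 genes.

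TG against L3–L5 DRG gave 0 called members, and edgeR's quasi-likelihood test called 0 of 12900 genes (0%). *Mbp* was 3.22-fold higher in TG (log2 fold change 1.69, SE 0.75, adjusted p = 0.264) and *Pllp* 2.73-fold higher (1.45, SE 0.63, adjusted p = 0.258), the latter without overlap, which 6.09% of genes showed with TG higher. These 2 members passed an unadjusted p under 0.05, as did 2342 of the genes, and DESeq2 called no member. All 8 members had a higher fitted level in TG, but for *Egr2* the log2 fold change was 0.28 (SE 0.83). Its TG mean rested on library 1, at 949 CPM. TG libraries 2 to 4 had 113, 55.9 and 157 CPM of *Egr2*, below the L3–L5 DRG mean of 274 CPM. Without L3–L5 DRG library 4 the log2 fold change was 2.41 for *Mbp* (adjusted p = 0.109).

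**Figure D3:**
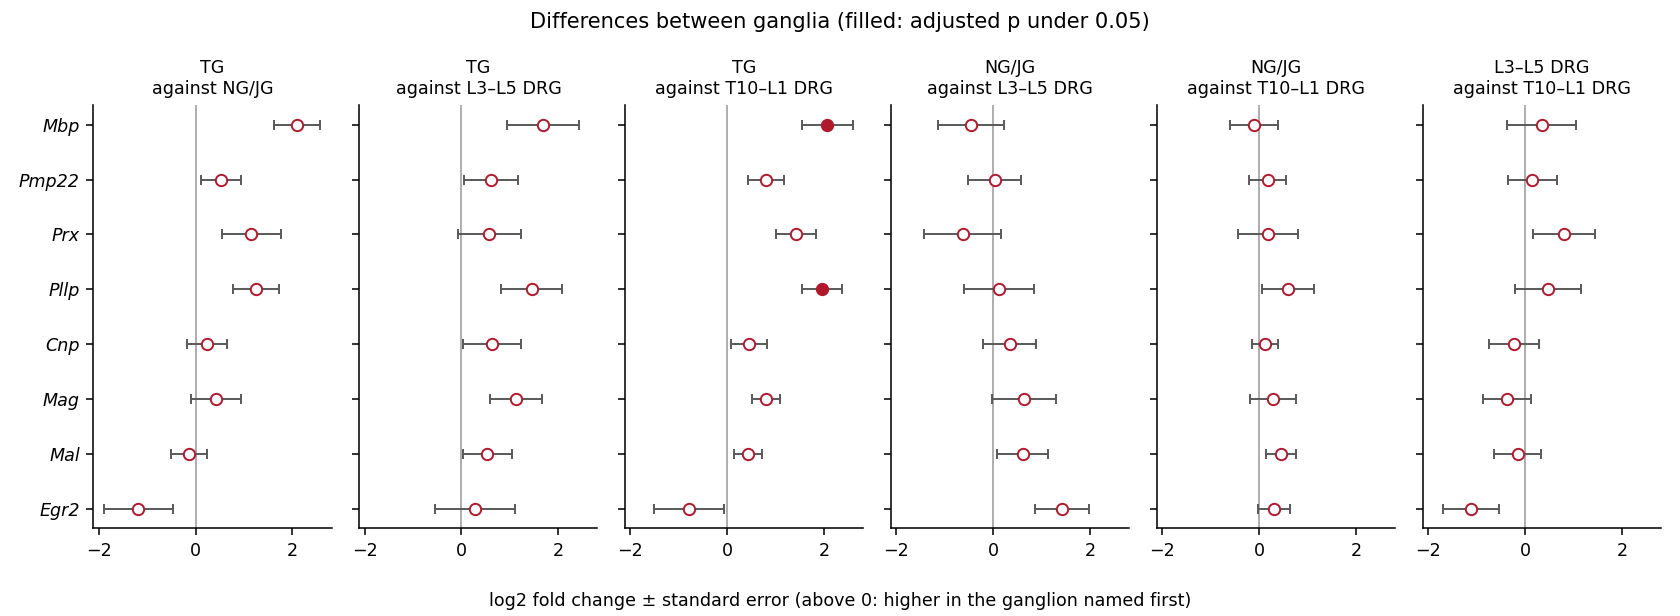
Log2 fold change of each member (horizontal axes, with standard errors as bars) in the 6 comparisons of 2 ganglia, above 0 where the ganglion named first was higher. The filled points, adjusted p under 0.05, are Mbp and Pllp in TG against T10-L1 DRG; Mbp is at 2.09, 1.69 and 2.07 in the 3 comparisons with TG.

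The comparisons without TG called no member. NG/JG against L3–L5 DRG had 1 member with no overlap between libraries, *Egr2*, at 2.68-fold higher in NG/JG (log2 fold change 1.42, SE 0.57, adjusted p = 0.687), and 2.17% of genes had no overlap with NG/JG higher. It was the 1 member at an unadjusted p under 0.05, as were 739 of 12240 genes, of which quasi-likelihood called 0 (0%) after adjustment. NG/JG against T10-L1 DRG called 4 of 12430 genes (0.0322%) and 0 members, with fold changes from 1.08-fold for *Mbp* to 1.51-fold for *Pllp*. L3–L5 DRG against T10-L1 DRG called 0 of 13550 genes (0%) and 0 members, with *Egr2* 2.17-fold higher in T10-L1 DRG (adjusted p = 0.785). DESeq2 called no member in these 3 comparisons, and the last 2 had 0 members at an unadjusted p under 0.05, with 735 and 823 genes. Over the 4 ganglia together, with 3.01% of 14236 genes called, no member passed: *Mbp* had an adjusted p of 0.0748 and *Pllp* of 0.196, and DESeq2 called *Mbp* (adjusted p = 0.0197). Comparisons that share a ganglion share its libraries.

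The members differed in how far TG stood above the other ganglia. For each read on *Pmp22* there were 3.26, 4.01, 2.98 and 2.22 reads on *Mbp* in TG, 1.12, 1.13, 0.966 and 0.882 in NG/JG, and 2.48, 0.933, 1.52 and 0.529 in T10-L1 DRG. L3–L5 DRG had 1.12, 0.988, 1.00 and 1.98. All TG libraries were above 2, and outside TG only T10-L1 DRG library 1 was. *Mbp* made up 56.9% to 68.0% of the members' summed level in TG, and 24.9% to 54.3% elsewhere. The 5 members used in peripheral and central myelin together had 2.20 to 3.47 times the level of the 3 mainly peripheral ones in TG, 1.11 to 1.61 times in NG/JG, 1.16 to 1.81 times in L3–L5 DRG and 0.804 to 2.31 times in T10-L1 DRG. This ratio was chosen after its values were seen, and no test was made of it. *Mbp* was the most abundant of the 5 in every library, so the ratio largely follows *Mbp* and does not describe the 5 as a class. Without *Mbp* the members summed to 9033 to 21817 CPM in TG and 8135 to 17901 in NG/JG. L3–L5 DRG had 4403 to 18280 CPM and T10-L1 DRG 7857 to 11007.5 CPM, so the ranges overlapped.

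*Mobp*, which encodes a protein of central myelin, moved with the *Mbp* ratio. It had 1359, 389, 453 and 241 CPM in TG, 18.2, 0.223, 1.35 and 44.7 CPM in NG/JG, 0.972, 1.16, 7.51 and 92.8 CPM in L3–L5 DRG, and 307, 2.29, 98.6 and 5.56 CPM in T10-L1 DRG. The libraries outside TG with the most *Mobp*, T10-L1 DRG libraries 1 and 3 and L3–L5 DRG library 4, also had the most *Mbp* per *Pmp22* read outside TG. Over the 16 libraries, log2 of the ratio and log2(CPM + 1) of *Mobp* had r = 0.84 and rho = 0.74, r = 0.83 without the 2 libraries farthest from the median *Mobp*, and r = 0.66 within ganglia. Of the 12 oligodendrocyte genes listed, only *Mobp* was set against the ratio, and others did not follow it throughout. *Mog* and *Hapln2* were higher in every TG library than in any other. Within TG, library 2 had the highest ratio (4.01) but the lowest *Mog* (11.6 CPM) and *Hapln2* (4.61 CPM).

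**Figure D4:**
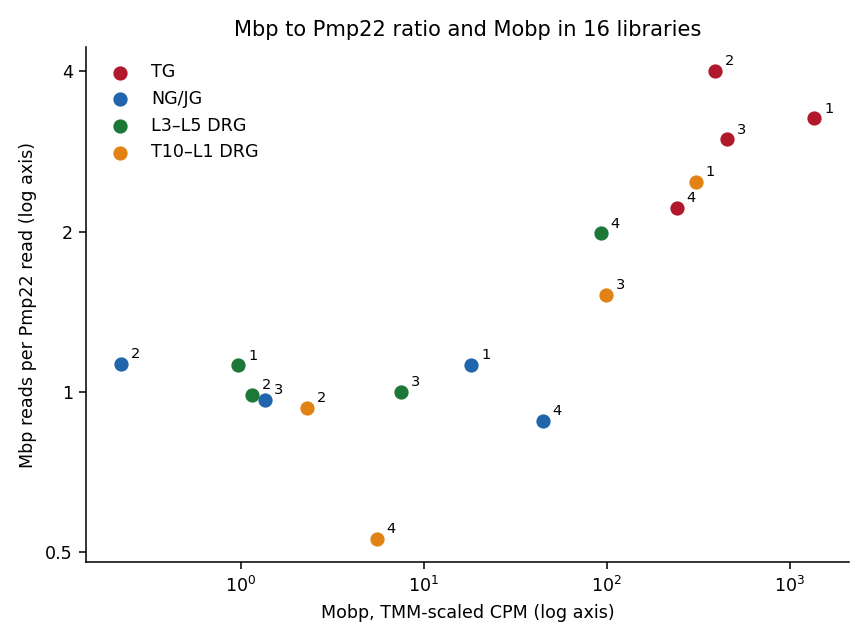
Mbp reads per Pmp22 read (vertical log axis) against Mobp in TMM-scaled CPM (horizontal log axis), with 1 numbered point per library, coloured by ganglion. The 4 TG libraries have ratios of 2.22 to 4.01 at 241 to 1359 CPM of Mobp, and libraries under 50 CPM of Mobp lie at 1.13 or below.

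*Mog*, an oligodendrocyte surface glycoprotein, had 155, 11.6, 97.3 and 18.9 CPM in TG, at most 0.54 CPM in NG/JG, at most 1.14 CPM in L3–L5 DRG and 11.5 CPM in T10-L1 DRG library 1. Of the 12 oligodendrocyte genes, 8, 10, 9 and 12 had reads in TG libraries 1 to 4. The most outside TG were 11 in T10-L1 DRG library 1 and 9 in L3–L5 DRG library 4. The 12 summed to 627 to 2370.2 CPM in TG, against 208 to 850.1 in T10-L1 DRG, 224 to 559.6 in NG/JG and 139.9 to 463 in L3–L5 DRG. *Aspa*, among the 3 most abundant of the 12, stood at 371 ± 80.0 CPM in TG, 354 ± 155 in NG/JG, 353 ± 134 in T10-L1 DRG and 208 ± 99.8 in L3–L5 DRG, with a log2 fold change of 0.27 in TG against T10-L1 DRG (adjusted p = 0.694). *Olig2* had no read in NG/JG and L3–L5 DRG, and *Opalin* had none in either DRG group. *Hapln2*, a link protein of central nodes of Ranvier, was the 1 of 9 tested oligodendrocyte genes called in TG against T10-L1 DRG (adjusted p = 0.0254), at 4.61 to 84.6 CPM in TG and under the 3-read floor in every T10-L1 DRG library. That call was lost when any of TG libraries 2, 3 or 4 or T10-L1 DRG libraries 1, 2 or 3 was left out. Over the 4 ganglia together, quasi-likelihood called 2 of 9 tested oligodendrocyte genes, where 3.01% of all genes were called. They were *Hapln2* (adjusted p = 0.00494) and *Mog* (adjusted p = 0.0226). Both passed the filter on low counts only through their TG reads, and neither was tested in a comparison without TG. Their direction was thus largely set before the test, and these calls only describe where the 2 genes had reads. The part of oligodendrocytes in the *Mbp* difference was not tested.

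Other genes of Schwann cells and myelin gave a mixed picture in TG against T10-L1 DRG. Of 35 measured and tested, 5 were called higher in TG and 2 lower, where 5.87% of all genes were called, and the median log2 fold change was 0.46. *S100b*, a calcium-binding protein of Schwann cells and other glia, had 1461 ± 435 CPM in TG and 274 ± 115 in T10-L1 DRG (log2 fold change 2.63, adjusted p = 0.0254). *Cd9*, a tetraspanin of myelin, was higher at 1.62 (adjusted p = 0.0406), *Cldn19*, a tight junction gene of Schwann cells, at 1.96 (adjusted p = 0.0403), *Bcas1*, known from myelinating glia, at 2.07 (adjusted p = 0.0371) and *Egfl8* at 1.84 (adjusted p = 0.0425). The 2 lower genes were *Cdh19*, a cadherin of the Schwann cell lineage and of satellite glia, at -1.96 (adjusted p = 0.0374), and *Itgb4*, the integrin subunit of the outer Schwann cell surface, at -1.38 (adjusted p = 0.0341). *Prnp*, among the 3 most abundant of the list, had -1.15 (adjusted p = 0.0599). These calls rested on the libraries and the method: 0 of the list, and 0 or 1 of all genes, were called when any of TG libraries 2, 3 or 4 or T10-L1 DRG libraries 1, 2 or 3 was left out. Without T10-L1 DRG library 4, 3 of the list and 119 of 13206 genes were called. Without TG library 1 it was 18 of the list and 3583 of 13410 genes. DESeq2 called 13 of the list, among 2199 of 14286 genes, and the likelihood-ratio test 13, among 1462 of 12914. With no filter 4 were called, among 427 of 18995 genes, and in the joint fit of 16 libraries 2, among 238 of 14236. By quasi-likelihood no gene of this list was called in the other 5 comparisons of 2 ganglia. DESeq2 called 1 in TG against NG/JG, *S100b* (adjusted p = 9.67e-05, and 0.000422 by the likelihood-ratio test), among 854 of 13447 genes. In TG against L3–L5 DRG it called 5 of the list, among 1612 of 14257 genes. *S100b*, *Cd9* and *Egfl8* passed over the 4 ganglia together (adjusted p = 0.00283, 0.0218 and 0.0382).

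Myelin is rich in cholesterol and very long chain lipids, and the genes of their synthesis were examined as a list. Of 18 measured, 17 were tested in TG against T10-L1 DRG, with 1 called higher in TG and 2 lower, where 5.87% of all genes were called. When any of the same 6 libraries was left out, 0 were called. DESeq2 called 7 of the 17, among 2199 of 14286 genes, and the likelihood-ratio test 6, among 1462 of 12914. With no filter 2 were called, among 427 of 18995 genes. The median log2 fold change was -0.66, and 4 of the 17 had a higher fitted level in TG. *Scd1*, a fatty acid desaturase, was lower in TG by a log2 fold change of -1.48 (adjusted p = 0.0354), at 339 ± 135 CPM against 1069.6 ± 253, and *Fdps*, of the cholesterol pathway, was higher at 1.34 (adjusted p = 0.0435). *Scd2*, the most abundant of the list, had -0.76 (adjusted p = 0.229). Over the 4 ganglia, where 3.01% of all genes were called, *Sqle*, *Scd1* and *Elovl1* were among the genes of this list that passed. The first 2 had their lowest mean in TG, and *Elovl1*, a fatty acid elongase, had its highest there (574 ± 207 CPM). The summed lipid level was 3328 to 5730 CPM in TG and 4885 to 7867 CPM elsewhere.

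The members' summed level ran against that of the neuron genes. TG library 1, with the highest sum of members at 56120 CPM, had the lowest neuron sum at 1614 CPM, and L3–L5 DRG libraries 2 and 3, with the lowest at 7082 and 7258 CPM, had the highest neuron sums at 13619 and 16750.4 CPM. On log2 sums over the 16 libraries, r was -0.82 and rho -0.71, r was -0.70 without the 2 libraries farthest from the median neuron sum, and r was -0.93 within ganglia. Both sums are shares of the same reads of a library. *Pirt* itself had 106 to 3164 reads per library.

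Other cell types were read in the same way. The sum of 7 fibroblast and perineurium genes had r = 0.71 with the members' sum (rho = 0.74, within ganglia 0.66). Its mean was 6772 ± 1356 CPM in TG, 4971 ± 3795 in T10-L1 DRG, 3072 ± 2754 in L3–L5 DRG and 2150.2 ± 1309 in NG/JG. The highest single library was T10-L1 DRG library 4, at 10661 CPM. *Dcn* made up most of the TG sum, at a mean of 5300 CPM. Of the 7 genes, 2 had a higher fitted level in TG against T10-L1 DRG, 3 against L3–L5 DRG and 5 against NG/JG. Satellite glial genes, of the cells that wrap the neuron body, had r = 0.20 (rho = 0.01, within ganglia 0.50), and non-myelinating Schwann cell genes had r = -0.67 (rho = -0.70, within ganglia -0.38). For 7 macrophage genes r was 0.60 (within ganglia 0.51), for 5 endothelial genes 0.63 (0.71) and for 4 mural genes 0.34 (0.50). Each r is over 16 libraries that share their scaling.

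*Egr2* moved with the immediate-early genes. The sum of 13 of them, *Egr2* not included, was 23772 CPM in TG library 1 and 9748 to 11402 in TG libraries 2 to 4, 18835 to 52560.1 in NG/JG and 15331 to 33258 in T10-L1 DRG, and L3–L5 DRG had 2981 to 15096. On log2 values over the 16 libraries r was 0.81 and rho 0.88, with r = 0.76 without the 2 farthest libraries and 0.77 within ganglia. The sum of all 8 members had r = 0.20 and rho = -0.05 with the same genes, r = -0.53 without the 2 farthest libraries and r = 0.51 within ganglia. *Fos*, the most abundant of the list, had 11957 ± 5815 CPM in NG/JG and 3225 ± 2058 in L3–L5 DRG (log2 fold change 1.88, adjusted p = 0.387), and none of the 13 passed by quasi-likelihood in a comparison of 2 ganglia. *Fosl2*, a gene of the *Fos* family, passed over the 4 ganglia together (adjusted p = 0.0255), and DESeq2 (adjusted p = 0.00168) and the likelihood-ratio test (adjusted p = 0.00391) called it lower in TG than in NG/JG (log2 fold change -3.30). Both also called it in TG against T10-L1 DRG. In NG/JG against L3–L5 DRG both called 3 of the 13, where DESeq2 called 819 of 14458 genes and the likelihood-ratio test 293 of 12240.

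**Figure D5:**
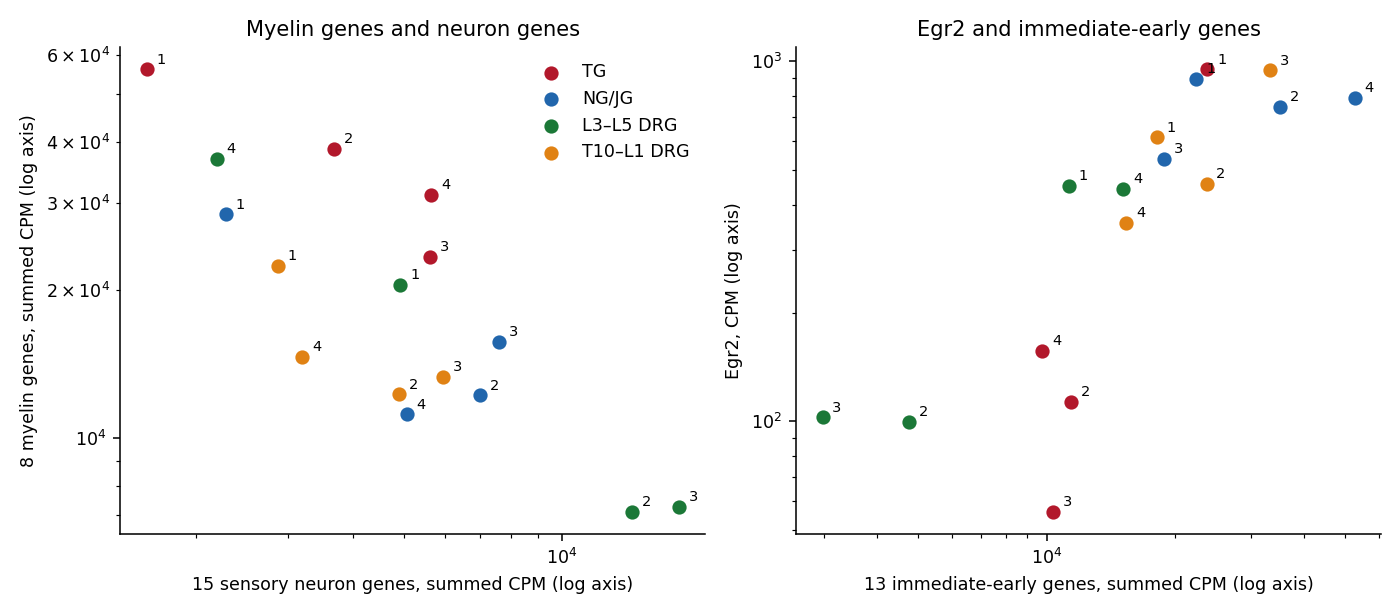
Left, summed level of the 8 members against that of 15 sensory neuron genes; right, Egr2 against the summed level of 13 immediate-early genes, all in TMM-scaled CPM on log axes with 1 numbered point per library. The left points fall from TG library 1 to L3–L5 DRG libraries 2 and 3 (r = -0.82), and on the right TG library 1 lies apart from the other TG libraries, at 949 CPM of Egr2.

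The genes outside all lists whose log2(CPM + 1) was most like the members' mean over the 16 libraries were *Smtn* (r = 0.91), *Ndrg1* (0.88), *Foxp1* (0.86), *Stxbp6* (0.86), *Qk* (0.85), *Plekha4* (0.85), *Plekhb1* (0.85), *Lrp4* (0.84) and *Slc3a2* (0.84). *Ndrg1* and *Plekhb1* were abundant, at a mean of 2092 and 1784 CPM, and *Foxp1*, *Lrp4* and *Stxbp6* were not, at 64.8, 71.9 and 84.6 CPM. Within ganglia their r stood between 0.80 for *Slc3a2* and 0.96 for *Ndrg1*.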

How the data were processed

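Sorted TdTomato-positive sensory neurons of 4 ganglia were profiled by SMART-seq2 from oligo dT primed RNA and sequenced as 50 bp single reads. The authors demultiplexed reads with bcl2fastq, placed them on mm9 with TopHat2 and obtained the reads of each gene symbol from HTSeq; annotation, strand setting and versions are not given in the sources used here. The deposited values are raw counts, 1 file per library, not normalized, and the counter's own totals of uncounted reads were left out.

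Libraries had 4735624 to 13333318 reads on genes (3 reads were 0.225 to 0.633 CPM), so counting error on the members is small beside the spread between libraries. The main level was CPM divided by TMM factors (0.870 to 1.11). Pairs of ganglia were compared on their own 8 libraries, and the 4 ganglia together on 16, with edgeR 4.0.16 in R 4.3.3 (filterByExpr, quasi-likelihood fit and test, Benjamini-Hochberg adjustment, threshold 0.05), group being the only term. The scripts were tested on simulated data. Fold changes per member come from this fit. Their standard error is the absolute log2 fold change divided by the square root of the quasi-likelihood F statistic. RPKM used the union of exons in the GENCODE annotation of NCBIM37, the same assembly as mm9; 21678 of 22609 symbols had a length. Correlations used log2 values with a pseudocount of 1 and are descriptions without a p. Promoter letters are RefSeq's on GRCm38.p6, read by symbol, and were not placed on mm9; 7 of the 8 members were matched.

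The members and gene lists were chosen with earlier results of these data known. All 8 members are named, and of each other list the 3 genes with the highest mean CPM and any called gene, as far as the text needs them; the genes most like the members are the 10 with the highest r outside the lists. Some genes are not reported here. *Ncmap* and *Cers2* had no row, and *Hmgcs1* had 0 reads. Alternatives were DESeq2 1.42.0, the likelihood-ratio test, RLE factors, no filter, the replicate block, all 16 libraries in 1 fit, each library left out, CPM without TMM factors, a pseudocount of 0.1 and the members without *Egr2*.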

Additional observations from a re-analysis of the deposited data

Results flagged for a closer look

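TG library 1 lay far from the other 3 TG libraries in 3 members. *Mag* had 461 CPM there, the nearest other TG library 238. *Cnp* had 4831 CPM there, the nearest other 1828. *Egr2* had 949 CPM there, the nearest other 157. In each the gap was larger than Dixon's 95% critical value, as a share of the range of the 4 libraries. Of 32 sets of 4 libraries (8 genes in 4 ganglia) 3 were marked, and chance marks about 1 in 20. The same library had the lowest summed level of neuron genes, 1614 CPM, and the highest in TG of immediate-early genes, 23772 CPM, and of oligodendrocyte genes, 2370.2 CPM; their part in these values was not tested.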

How the results depend on the processing

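Counts of members called moved with the method. In TG against T10-L1 DRG, 2 members passed; 3 did with DESeq2 and with the likelihood-ratio test (*Prx* added), 1 with no filter on low counts, 0 with all 16 libraries in 1 fit and 0 to 4 with a library left out. In TG against NG/JG, 0 passed, and 1 did with DESeq2, with the likelihood-ratio test and with no filter, and 0 to 1 with a library left out. Over the 4 ganglia 0 passed, and 1 did with DESeq2 and with the likelihood-ratio test, and 0 to 1 with a library left out: *Mbp* without NG/JG library 1 or L3–L5 DRG library 4, and *Egr2* without TG library 1. DESeq2 gave no adjusted p for *Egr2* in TG against NG/JG. The other 4 comparisons stayed at 0 under every alternative run. Adjusted p over the alternatives ran from 0.00128 to 0.162 for *Mbp* and from 0.000702 to 0.150 for *Pllp* in TG against T10-L1 DRG. The sign of 12 fold changes that the text turns on held under every alternative run; of all 48, 19 changed sign under at least 1, the largest of these being 0.80 on the log2 scale. Other alternatives for the summed and mean log2 levels moved them by less than 1 SD. The causes were not tested.

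With the replicate block, 0 members passed in TG against T10-L1 DRG (*Mbp* adjusted p = 0.104, *Pllp* 0.0934), and no other member call changed. The numbers share no stated animal. Correlations of same-numbered libraries ran from -0.11 to 0.18, with a mean above 0 in each comparison (0.010 to 0.12). In no comparison were all 4 over 0.1. NG/JG against L3–L5 DRG was the 1 comparison where all 4 libraries correlated best with their own number. Whether the numbers pair the libraries cannot be told from these values.

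Counts over all genes moved more. TG against T10-L1 DRG had 758, and 2199 with DESeq2, 1462 with the likelihood-ratio test, 427 unfiltered, 238 in the joint fit, 0 with the block and 0 to 3583 with a library left out. TG against NG/JG had 6, and in the same order 854, 247, 56, 484, 1 and 1 to 325. TG against L3–L5 DRG had 0, and 1612, 858, 39, 206, 0 and 0 to 2038. NG/JG against L3–L5 DRG had 0, and 819, 293, 2, 83, 0 and 0 to 2. NG/JG against T10-L1 DRG had 4, and 909, 334, 9, 54, 0 and 1 to 5. L3–L5 against T10-L1 DRG had 0, and 78 with DESeq2 and 18 with the likelihood-ratio test. The 4 ganglia together had 429, and 1868, 1525 and 241, then 184 with the block and 33 to 1035 with a library left out.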
